A study of Scyliorhinus canicula with 3 samples.

Results

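Bipolar cells (BCs) carry the signal of photoreceptors to amacrine cells (ACs) and ganglion cells (RGCs), and 8 genes that lead the bipolar nuclei of the small-spotted catshark retina are described here. They are *trpm1a*, *lrit1a*, LOC119953069 (*prkca-l*, a protein kinase C alpha gene), *prkd3*, *cplx4a*, *neto1l*, *rerg* and *nptx2b*, taken by symbol from the 29017 features of the count matrices, and all 8 were found. They were chosen by their measured level in earlier readouts of the same nuclei, where they led bipolar clusters, so their levels are given as a description with no test. Retinas of 3 female juvenile sharks (*Scyliorhinus canicula*) with a total length of 11.0, 10.5 and 11.1 cm were frozen, and 1 single-nucleus library was made from each animal. The authors anaesthetised the animals with tricaine methanesulfonate before the eyes were taken. The labels name no experimental treatment, and libraries 1, 2 and 3 are replicates of 1 condition.

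In a vertebrate retina, photoreceptors release glutamate in the dark onto the dendrites of bipolar cells. ON bipolar cells sense it through the metabotropic receptor mGluR6, whose G protein cascade closes the cation channel TRPM1, so that light depolarises them. OFF bipolar cells use ionotropic receptors of the AMPA and kainate families instead. In mice, the transcription factor Isl1 and protein kinase C alpha mark ON types, the kinase above all the rod bipolar cell. Bipolar and photoreceptor terminals hold ribbon synapses, where complexins bind the membrane fusion machinery.

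Clustering left 17745 nuclei (4959, 4205 and 8581 in libraries 1, 2 and 3). A class was named only from marker genes and carries the ending "-like". The bipolar class (BC-like) held 1373 nuclei, 255, 301 and 817 by library, or 5.14%, 7.16% and 9.52% of each library. *lhx4*, a homeobox gene of bipolar cells and one of the markers that named the class, averaged 209 CPM (counts of unique molecular identifiers, UMIs, per 1000000 UMIs of the summed nuclei) in BC-like nuclei and 13.4 CPM in all other nuclei. *vsx1*, another of these markers, parted the class less. It averaged 491 CPM in BC-like nuclei and 98.4 CPM in all other nuclei, but 563 CPM in retinal progenitor-like (RPC-like) nuclei. The class was made of 3 clusters, each called here by its leading gene: the *prkd3*-led cluster (371 nuclei), the *npr3*-led cluster (382 nuclei) and the *neto1l*-led cluster (620 nuclei). Of 15 bipolar markers found, 7, 8 and 8 passed in these clusters, in this order. Passing meant at least 10 CPM and a log2 ratio of at least 1 over all other nuclei. *isl1* averaged 302 ± 106 CPM in the *npr3*-led cluster and 111 ± 62.0 CPM in the *prkd3*-led cluster, against 13.1 ± 5.13 CPM in the *neto1l*-led cluster and 10.3 ± 2.45 CPM in rod-like nuclei (SD, n = 3 libraries, as for every mean below). By library, *isl1* had 181, 86.4 and 64.8 CPM in the *prkd3*-led cluster against 69.3, 48.7 and 42.2 CPM in near-empty droplets, so that cluster was above free RNA in each library by less than the *npr3*-led one, while the *neto1l*-led cluster and rod-like nuclei were below it. *isl1* was not particular to bipolar nuclei. Cholinergic AC-like nuclei had 254, 134 and 138 CPM, above the *prkd3*-led cluster in every library, and RGC-like nuclei 79.1, 73.7 and 59.0 CPM. BC-like nuclei were deeper (median of 6462, 5483 and 4133 UMIs by library) than rod-like nuclei (2952, 1720 and 1571 UMIs). Shares of nuclei with a UMI are therefore given after nuclei with at least 1000 UMIs were thinned to 1000 UMIs. Shallower nuclei were left out of these shares. They kept 1073, 789 and 1593 of 1073, 931 and 1929 rod-like nuclei by library, and 255, 299 and 812 BC-like nuclei. Near-empty droplets are here the barcodes with at least 200 detected genes whose UMI count was at or below the median of such barcodes. Barcodes with fewer genes were left out, so these droplets may hold more than free RNA, which was not tested. Where free RNA is named, their level is meant. The checks on free RNA stand beside the levels: 34947, 26769 and 32186 near-empty droplets of libraries 1, 2 and 3 (median of 390, 305 and 481 UMIs), and the summed level of 13 rod marker genes found in the files (of 29 listed). That sum was 3945 to 8924 CPM in the BC-like clusters, against 34108 to 37371 CPM in rod-like nuclei and 20713 to 52175 CPM in near-empty droplets, with none of the 13 genes at 0. Glycinergic AC markers summed to 1682 to 2062 CPM in the *neto1l*-led, 1051 to 1584 in the *prkd3*-led and 241 to 990 in the *npr3*-led cluster. Droplets had 702 to 1047 CPM. GABAergic AC markers summed to 626 to 1533 CPM in the *neto1l*-led cluster, below the droplets (1746 to 3668 CPM). Whether clusters hold mixed nuclei was not tested. No barcode of a BC-like nucleus was shared between libraries, among 32 shared barcodes of all nuclei.

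All 8 genes had their highest level of any named class or unnamed cluster in BC-like nuclei, in each of the 3 libraries. Of 10423 genes with a summed mean of at least 20 CPM over both groups, 2.85% did so. In the ratio of BC-like nuclei to all other nuclei, taken as log2 of (CPM + 10) and averaged over libraries, *neto1l* had rank 1 of the 10423 genes at 4.80, *prkd3* rank 2 at 4.52, *rerg* at rank 5 with 4.43 and *cplx4a* at rank 6 with 4.05. *trpm1a* had rank 15 (3.29), *lrit1a* rank 41 (2.60), *nptx2b* rank 44 (2.58) and *prkca-l* rank 70 (2.26). The added 10 CPM lowers the ratio, and so the rank, of genes at a low level, such as *lrit1a* and *nptx2b*. *nptx2b* had 87.3, 62.6 and 51.7 CPM in BC-like nuclei against 1.92, 2.09 and 4.14 CPM in all other nuclei. A ratio of at least 1 was reached by 3.73% of genes and by all 8 of these, which is what their choice had fixed. Within the BC-like class the genes parted into several patterns: *prkd3*, *trpm1a*, *rerg* and *prkca-l* peaked in the *prkd3*-led cluster, *neto1l* in the *neto1l*-led cluster, *lrit1a* in the *npr3*-led cluster, *cplx4a* in the *npr3*-led and *neto1l*-led clusters, and *nptx2b* had overlapping ranges in all 3.

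**Figure D1:**
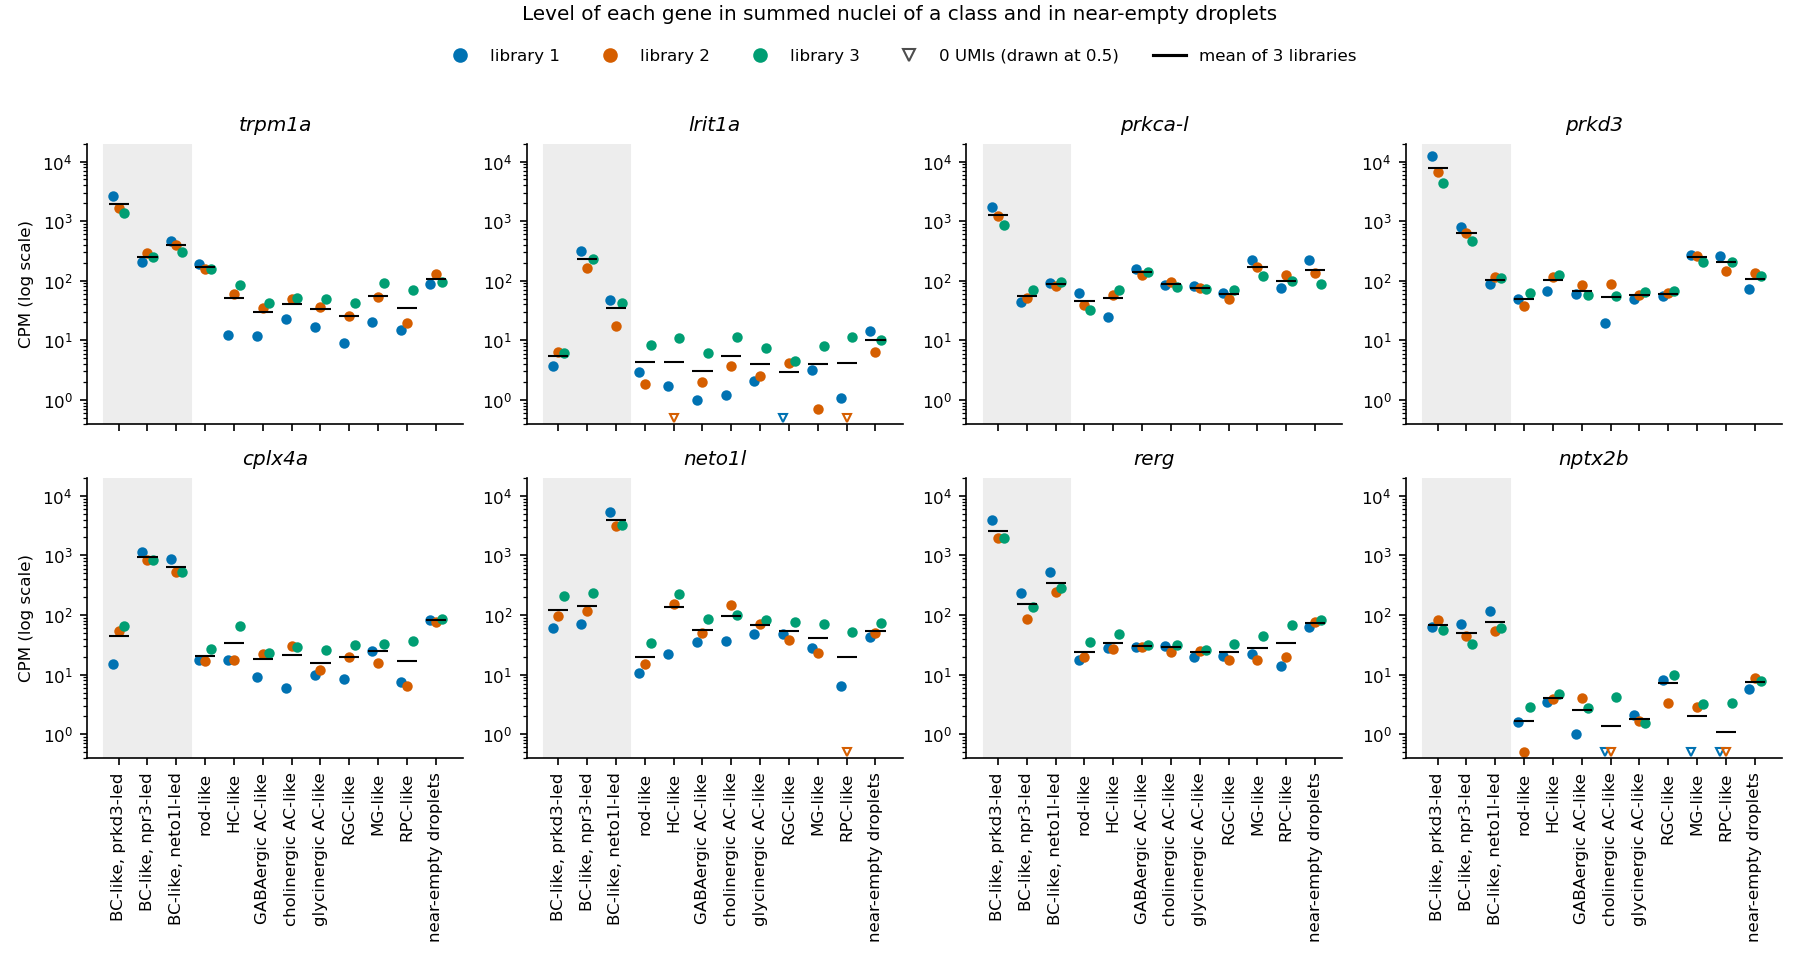
Level of each gene in CPM on a log axis, 1 panel a gene, with 1 point a library and a black line at the mean of 3 libraries. The grey band marks the 3 BC-like clusters, other classes and the near-empty droplets stand to its right, and open triangles are sums of 0 UMIs drawn at 0.5. The *prkd3*-led cluster reaches 12493 CPM of *prkd3* in library 1, and the *neto1l*-led cluster 5407 CPM of *neto1l*.

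*trpm1a* encodes the TRPM1 channel of the mGluR6 cascade and lies on chromosome 24 at chr24:822375-904694 of assembly sScyCan1.1. In the *prkd3*-led cluster it had 2628, 1686 and 1391 CPM in libraries 1, 2 and 3. The *neto1l*-led cluster had 470, 403 and 298 CPM, and the *npr3*-led cluster 208, 292 and 246 CPM. The first cluster was thus 4.18 to 5.59 times the second and 5.65 to 12.7 times the third in every library, and the ranges of the 3 clusters did not overlap. Rod-like nuclei came next with 191, 156 and 157 CPM, above the near-empty droplets of each library (87.2, 132 and 96.0 CPM). After thinning, 17.4%, 12.7% and 14.5% of rod-like nuclei held a *trpm1a* UMI. Of GABAergic AC-like nuclei, a class taken here to lack the channel, 1.55%, 2.33% and 4.62% did. Unthinned, these shares were 40.0%, 25.8% and 25.3% of rod-like nuclei and 6.54%, 13.8% and 15.0% of GABAergic AC-like nuclei, whose median depth was higher (5898, 5300.5 and 3411 UMIs). The thinned rod-like share was thus above that of GABAergic AC-like nuclei in every library. The remaining classes averaged 25.5 CPM (RGC-like) to 55.3 CPM (Mueller glia, MG-like), with overlapping ranges.

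*prkca-l* encodes a protein kinase C of the diacylglycerol-activated group and lies at chr18:8644453-8893990. It had 1760, 1239 and 858 CPM in the *prkd3*-led cluster. The *neto1l*-led cluster had 92.1, 80.9 and 94.4 CPM and the *npr3*-led cluster 44.5, 50.7 and 70.7 CPM, neither of them above the level of all nuclei outside the BC-like class in all 3 libraries. The *prkd3*-led cluster was 9.09 to 19.1 times the *neto1l*-led cluster and 12.1 to 39.6 times the *npr3*-led cluster. Outside the BC-like class, MG-like nuclei (222, 171 and 122 CPM) and GABAergic AC-like nuclei (158, 125 and 140 CPM) had the most, with ranges that overlapped. Near-empty droplets held 225, 135 and 88.8 CPM, above GABAergic AC-like nuclei in libraries 1 and 2 and above MG-like nuclei in library 1. Rod-like nuclei had 63.4, 39.8 and 31.9 CPM, below the droplets in every library.

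*prkd3*, at chr1:285347548-285861234, encodes a kinase of the protein kinase D family, which acts below diacylglycerol and protein kinase C. It had 12493, 6646 and 4305 CPM in the cluster it leads, or 115, 53.0 and 29.3 UMIs a nucleus, and 100%, 98.0% and 97.2% of these nuclei held a UMI after thinning. The *npr3*-led cluster had 790, 623 and 467 CPM, with a UMI in 47.4%, 45.2% and 36.8% of thinned nuclei. The *neto1l*-led cluster had 88.3, 115 and 110 CPM, within the range of the near-empty droplets (72.9, 132 and 119 CPM). So the kinase was high in both clusters with *isl1* above the droplets, 9.21 to 15.8 times higher in the *prkd3*-led than in the *npr3*-led one, and near the level of free RNA in the *neto1l*-led cluster. MG-like nuclei had 266, 265 and 209 CPM and retinal progenitor-like (RPC-like) nuclei 260, 144 and 207 CPM, which overlapped, and rod-like nuclei had the lowest mean of any class at 49.6 ± 11.9 CPM. Library 1 was the highest and library 3 the lowest in the *prkd3*-led cluster for this gene and for *trpm1a* and *prkca-l*, in the same order as the depth of BC-like nuclei, whose part in this was not tested.

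*rerg*, at chr11:116046833-116121061, encodes a small GTPase of the Ras family, known from human cells as an oestrogen-regulated growth inhibitor. It had 3879, 1928 and 1996 CPM in the *prkd3*-led cluster, 528, 240 and 285 CPM in the *neto1l*-led cluster and 232, 84.5 and 136 CPM in the *npr3*-led cluster. The *prkd3*-led cluster was 7.005 to 8.02 times the *neto1l*-led cluster, the steadiest of these ratios between libraries. All 3 clusters were above the near-empty droplets of their library (63.0, 75.3 and 81.5 CPM). Rod-like nuclei (17.3, 19.7 and 34.7 CPM) and the other named classes were below them, with means between 23.6 CPM (glycinergic AC-like) and 34.6 CPM (horizontal cell-like, HC-like).

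*lrit1a* lies at chr22:12311887-12327480, between *rgra* and *lrit2*, and encodes a membrane protein with leucine-rich repeats and an immunoglobulin-like domain that in mice sits at photoreceptor synapses. In the catshark nuclei it was at 310, 163 and 232 CPM in the *npr3*-led cluster. The *neto1l*-led cluster had 46.7, 17.7 and 41.9 CPM, 5.54 to 9.19 times less. The *prkd3*-led cluster held only 2, 5 and 9 UMIs (3.74, 6.26 and 6.20 CPM), within the range of the classes outside. Rod-like nuclei had 2.97, 1.83 and 8.32 CPM, below the near-empty droplets (14.1, 6.43 and 10.1 CPM) in every library. With a UMI in 0.280%, 0.380% and 0.628% of thinned rod-like nuclei, against 25.0%, 13.7% and 26.4% of the *npr3*-led cluster, *lrit1a* was not detectable above the droplets in rod-like nuclei at this depth. HC-like and RPC-like nuclei of library 2 and RGC-like nuclei of library 1 had 0 UMIs.

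*cplx4a* lies at chr3:58682265-58800036, between *rx3* and *lman1*, and encodes a complexin of the retinal subfamily, which in mice is found at ribbon synapses. It had 1140, 853 and 851 CPM in the *npr3*-led cluster and 877, 521 and 522 CPM in the *neto1l*-led cluster. These ranges overlapped, although the first cluster was 1.30 to 1.64 times the second within every library. The *prkd3*-led cluster had 15.0, 53.9 and 64.8 CPM, below the near-empty droplets (81.7, 77.0 and 85.1 CPM) in every library. Its level overlapped those of HC-like (17.3, 17.5 and 65.2 CPM) and rod-like nuclei (17.8, 16.9 and 27.1 CPM). *lrit1a* and *cplx4a* were thus both near background in the cluster where *trpm1a*, *prkca-l*, *prkd3* and *rerg* peaked.

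*neto1l* encodes a CUB domain protein related to Neto1, which in mice is an auxiliary subunit of kainate receptors, and lies at chr10:163324384-163701024, where a small nuclear RNA gene overlaps it. The cluster it leads had 5407, 3087 and 3240 CPM, or 35.4, 19.2 and 15.6 UMIs a nucleus. The *npr3*-led cluster had 70.4, 116 and 230 CPM and the *prkd3*-led cluster 59.8, 95.2 and 205 CPM. These were 14.1 to 76.8 times and 15.8 to 90.4 times below the *neto1l*-led cluster, and overlapped with HC-like nuclei (22.5, 154 and 229 CPM). Both of the low clusters had their highest value in library 3, as did the HC-like nuclei and the near-empty droplets (42.4, 49.1 and 73.3 CPM). Both clusters were above the droplets in each library. Rod-like nuclei had 10.5, 15.1 and 33.8 CPM.

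*nptx2b*, at chr15:23542827-23558636, encodes a secreted neuronal pentraxin, a family that in mammals gathers AMPA receptors at synapses. It was the one gene whose ranges overlapped between all 3 clusters, with 63.6, 82.7 and 55.2 CPM in the *prkd3*-led, 70.4, 44.4 and 33.1 CPM in the *npr3*-led and 115, 53.1 and 60.3 CPM in the *neto1l*-led cluster. RGC-like nuclei were next with 8.01, 3.35 and 9.94 CPM, without overlap, and rod-like nuclei had 1.62, 0.458 and 2.85 CPM. The low level limits its detection in single nuclei, at 9.02%, 4.01% and 5.17% of thinned BC-like nuclei, against 0%, 0% and 0.314% of rod-like nuclei. The near-empty droplets had 5.79, 8.92 and 7.90 CPM.

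The same nuclei held several of these RNAs at once, counted without thinning and with the 3 libraries pooled. Most of these genes are leading genes of the clusters in question, so high joint shares follow from their choice and are a description only. Of 371 nuclei of the *prkd3*-led cluster, 357 (96.2%) had at least 3 UMIs of both *prkd3* and *rerg*, 353 (95.1%) of both *trpm1a* and *prkd3*, and 303 (81.7%) of both *trpm1a* and *prkca-l*. Only 24 (6.47%) combined *prkd3* with *neto1l*. In the *npr3*-led cluster, 137 of 382 nuclei (35.9%) combined *prkd3* with *cplx4a*, and in the *neto1l*-led cluster 259 of 620 (41.8%) combined *cplx4a* with *neto1l* and 174 (28.1%) *trpm1a* with *neto1l*. The median nucleus had a UMI of 5 of the 8 genes in the *prkd3*-led cluster (median depth 6278 UMIs) and of 4 in either other cluster, against 1 in GABAergic AC-like nuclei (4244 UMIs), where 30.5% had none, and 0 in the shallower rod-like nuclei (1911 UMIs), where 51.4% had none.

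Because the 8 genes themselves took part in the clustering, nuclei were clustered again without them and without the pathway genes listed below. BC-like nuclei then numbered 1300, of which 1297 were BC-like before (94.5% of the 1373). Most of those that left the class came from the *neto1l*-led cluster. Of its nuclei, 16 became MG-like, 7 glycinergic AC-like, and 5, 14 and 2 joined GABAergic AC-like clusters. The 1300 nuclei fell into 4 clusters. A cluster of 362 nuclei averaged 7833 CPM of *prkd3*, 1911 CPM of *trpm1a* and 2608 CPM of *rerg*. A cluster of 376 nuclei averaged 238 CPM of *lrit1a*, 947 CPM of *cplx4a* and 305 CPM of *isl1*. A cluster of 473 nuclei averaged 4297 CPM of *neto1l*, and a small one of 89 nuclei 3026 CPM of *neto1l* with 1408 CPM of *cplx4a*. The order for *cplx4a* thus differed from the first clustering: the small cluster had 1906, 992 and 1327 CPM, above the 1140, 864 and 835 CPM of the cluster with the most *isl1* in every library.

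The bipolar nuclei were then divided by *isl1* itself. At least 1 *isl1* UMI was present in 449 BC-like nuclei (114, 101 and 234 by library) and none in 924 (141, 200 and 583). The *isl1*-positive nuclei were the deeper ones, with a median of 6438 UMIs against 4301 UMIs in *isl1*-negative nuclei, and a nucleus with no UMI may still express the gene. Of the *isl1*-positive nuclei, 59.5% lay in the *npr3*-led, 33.2% in the *prkd3*-led and 7.35% in the *neto1l*-led cluster. Of the *isl1*-negative nuclei, 12.4% lay in the *npr3*-led, 24.0% in the *prkd3*-led and 63.5% in the *neto1l*-led cluster. The *prkd3*-led cluster was thus split between both sides, 149 of its nuclei positive and 222 negative.

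**Figure D2:**
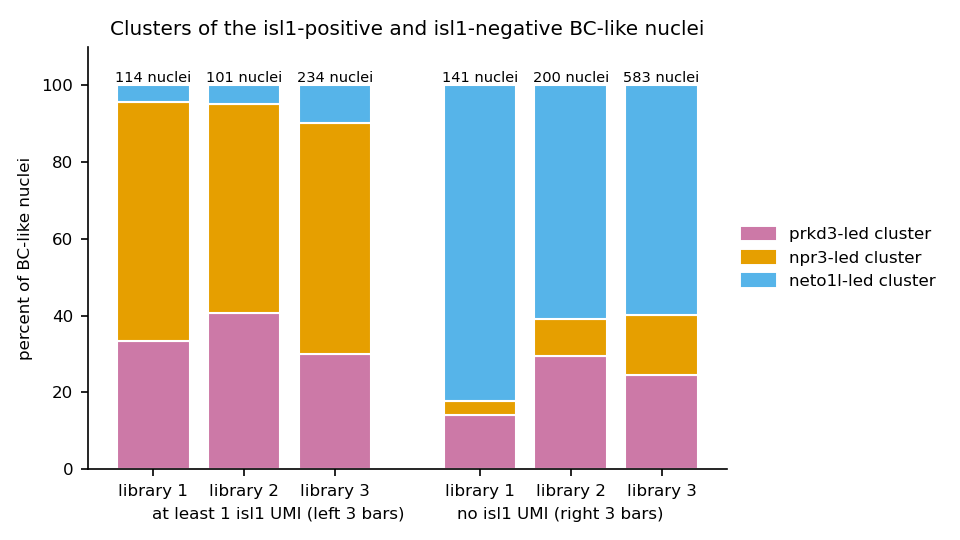
Share of each BC-like cluster (percent, stacked bars) among *isl1*-positive BC-like nuclei, on the left, and *isl1*-negative BC-like nuclei, on the right, 1 bar a library with its number of nuclei on top. The *npr3*-led cluster makes up 54.5% to 62.3% of the positive and 3.55% to 15.6% of the negative nuclei.

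*neto1l* was lower on the *isl1*-positive side in all 3 libraries, at 224, 245 and 528 CPM in *isl1*-positive nuclei against 4601, 1914 and 1985 CPM in *isl1*-negative nuclei, a log2 ratio of -3.04 ± 1.21. *lrit1a* was higher in all 3, at 174, 88.6 and 126 CPM in *isl1*-positive nuclei against 42.2, 18.6 and 50.9 CPM in *isl1*-negative nuclei (1.59 ± 0.37). In both genes the groups did not overlap. These 2 kept their direction under each other way tried of dividing the nuclei. In the divisions by cluster given below, that direction was fixed in advance. *neto1l* leads a cluster on the negative side there, and *lrit1a* is among the leading genes of the *npr3*-led cluster on the positive side. The division by *isl1* UMIs is not independent of these clusters. The *neto1l*-led cluster held 63.5% of the *isl1*-negative nuclei, and the *npr3*-led cluster 59.5% of the *isl1*-positive ones. A kept direction of these 2 genes is thus a description of the same clusters and no independent support.

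*prkd3* had 5726, 3452 and 1877 CPM in *isl1*-positive nuclei against 1819, 2299 and 1455 CPM in *isl1*-negative nuclei (0.87 ± 0.69). *prkca-l* had 779, 655 and 348 CPM in *isl1*-positive nuclei against 316, 434 and 342 CPM in *isl1*-negative nuclei (0.63 ± 0.63). *rerg* had 1774, 991 and 854 CPM in *isl1*-positive nuclei against 1003, 769 and 802 CPM in *isl1*-negative nuclei (0.42 ± 0.37). Each was higher on the positive side in all 3 libraries, but the ranges overlapped, and library 3 had the smallest ratio for each. *trpm1a* had 1237, 959 and 617 CPM in *isl1*-positive nuclei against 770, 818 and 670 CPM in *isl1*-negative nuclei (0.26 ± 0.40). *cplx4a* had 698, 472 and 499 CPM in *isl1*-positive nuclei against 715, 379 and 425 CPM in *isl1*-negative nuclei (0.17 ± 0.18). Each was higher on the positive side in 2 libraries. *nptx2b* averaged 61.2 CPM in *isl1*-positive nuclei and 74.1 CPM in *isl1*-negative nuclei (-0.20 ± 0.57), a ratio that was 0.06 without library 1.

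How the line is drawn turned the direction of 5 genes. With nuclei thinned to 1000 UMIs, of which 42, 31 and 71 were then *isl1*-positive, the log2 ratio became -0.34 for *trpm1a*, -0.06 for *prkca-l* and -0.33 for *rerg*, and 0.05 for *prkd3*. With the *npr3*-led cluster, the only one whose *isl1* level lay above the BC-like mean in all 3 libraries, set against the other clusters, it was -2.03 for *trpm1a*, -3.26 for *prkca-l*, -2.39 for *prkd3* and -3.12 for *rerg*. With the *prkd3*-led cluster added to the *npr3*-led one, since both had over 3 times the *isl1* level of rod-like nuclei, a division chosen after seeing the data, it was 1.55 for *trpm1a*, 2.88 for *prkca-l*, 5.23 for *prkd3* and 2.10 for *rerg*, but -0.50 for *cplx4a*. *trpm1a*, *prkca-l*, *prkd3* and *rerg* all peaked in the *prkd3*-led cluster, which lies on the negative side in the first of these divisions by cluster and on the positive side in the second. Within the *prkd3*-led cluster, *isl1*-positive and *isl1*-negative nuclei averaged 7921 and 7623 CPM of *prkd3*, 1892 and 1895 CPM of *trpm1a*, and 2643 and 2558 CPM of *rerg*. Within the *npr3*-led cluster they averaged 237 and 233 CPM of *lrit1a*. By library, its *isl1*-positive nuclei had 308, 174 and 231 CPM. The *isl1*-negative ones had 372, 91.4 and 236 CPM, from only 6, 6 and 84 UMIs. Some sides were small. The *npr3*-led cluster had 5, 19 and 91 *isl1*-negative nuclei, which held 0, 1 and 43 UMIs of *neto1l*. The *neto1l*-led cluster had 5, 5 and 23 *isl1*-positive nuclei, which held 5, 2 and 20 UMIs of *lrit1a*. Neither a difference nor a likeness inside these clusters is read from such sides.

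**Figure D3:**
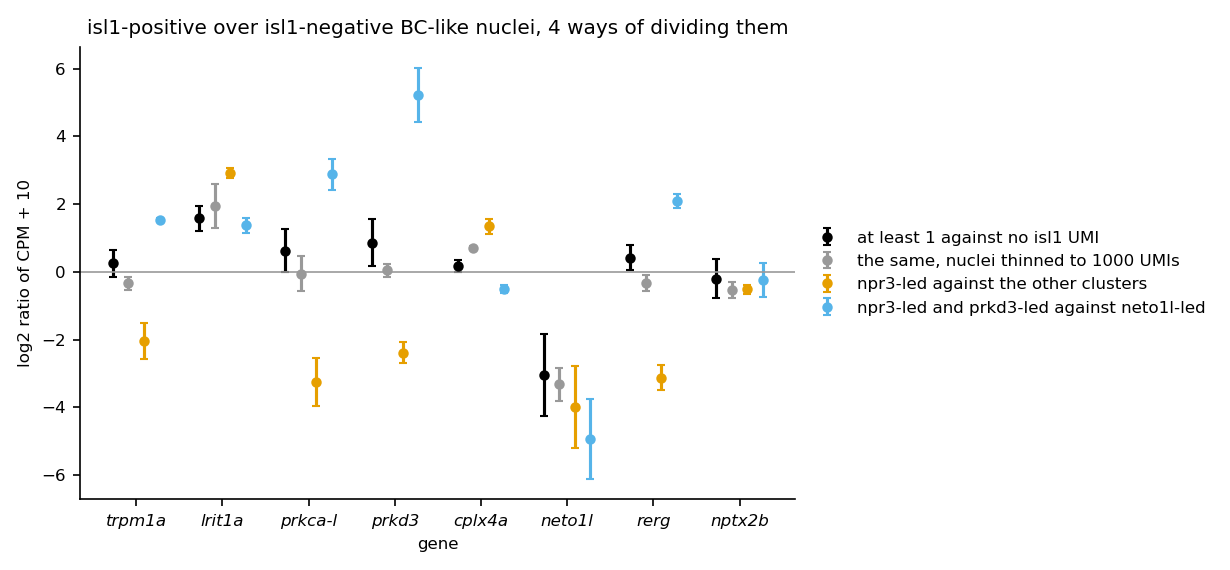
Log2 ratio of (CPM + 10) of *isl1*-positive over *isl1*-negative BC-like nuclei for each gene, as mean and SD of 3 libraries, under 4 ways of dividing the nuclei (black, at least 1 UMI; grey, the same after thinning; orange, the *npr3*-led cluster against the others; blue, the *npr3*-led and *prkd3*-led clusters against the *neto1l*-led one). *neto1l* lies below 0 and *lrit1a* above 0 in all 4, while *prkd3* spans -2.39 to 5.23. For *neto1l* and *lrit1a*, leading genes of the clusters used, the orange and blue directions were fixed in advance. The black and grey divisions are not independent of these clusters.

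Across the genome, edgeR's quasi-likelihood test on the summed counts, with library as a block and Benjamini-Hochberg adjustment, called 205 of 10598 genes (1.93%) between *isl1*-positive and *isl1*-negative BC-like nuclei, 97 higher (0.915%) and 108 lower (1.02%) in *isl1*-positive nuclei. This count changed with the libraries used, for a reason that was not tested. Without library 2 edgeR called 0 genes (817 at an unadjusted p under 0.05). It called 455 without library 1 and 347 without library 3, and DESeq2 called 179 on all libraries. Without the block, edgeR called 0 genes (520 at an unadjusted p under 0.05). Genes of 4 lists of related function that are not among the 8 were read against this background. These lists were drawn up with earlier results of these data known. *dgkza*, *prkcea* and LOC119969118 (*grik1*) are also among the leading genes of BC-like clusters. Calls within the lists are therefore a description of the same clusters and no independent support. Both sides of the division come from the same nuclei that were clustered, and they differ in depth. With nuclei thinned to 1000 UMIs and divided by *isl1* again, 204 of 3230 genes were called. Whether these were the same genes was not tested.

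Of the list for the mGluR6 and TRPM1 cascade, 8 genes were found and tested, 1 was higher and none lower, and their median log2 fold change was 0.33, against -0.006 over all genes. The mGluR6 gene itself was not among the genes matched. This does not show that it is absent, since a LOC number the study did not name could not be matched. Those matched include *lrit2* and *trpm3*, relatives of *lrit1a* and *trpm1a*, so the median is not that of the cascade alone. The one that rose was *rgs11*, whose product speeds the shut-off of the G protein in ON bipolar dendrites of mice, with 1077 CPM in *isl1*-positive and 399 CPM in *isl1*-negative nuclei (log2 fold change 1.33, edgeR adjusted p = 0.024). By cluster it averaged 1406 CPM in the *prkd3*-led, 934 CPM in the *npr3*-led and 47.7 CPM in the *neto1l*-led cluster, against 70.5 CPM in all nuclei outside the class. The call was lost without library 2, as was every call below. *gnao1b* and *gng13b*, which were not called, were highest in the *prkd3*-led cluster, as *trpm1a* was. *gnao1b*, the alpha subunit of the G protein Go, averaged 1190, 481 and 242 CPM in the *prkd3*-led, *npr3*-led and *neto1l*-led clusters. *gng13b*, a gamma subunit, averaged 362, 150 and 119 CPM in the same order.

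Of the protein kinases C and D with the diacylglycerol kinases that remove their activator, 12 genes were found and 10 tested, of which 2 were higher and 1 lower (median 0.13). *dgkza*, diacylglycerol kinase zeta, had 1983 CPM in *isl1*-positive and 461 CPM in *isl1*-negative nuclei (log2 fold change 2.06, edgeR adjusted p = 0.0078), and *dgki*, the iota form, had 135 CPM in *isl1*-positive and 63.0 CPM in *isl1*-negative nuclei (1.11, edgeR adjusted p = 0.0086). Both were highest in the *npr3*-led cluster, at 3547 and 239 CPM. *dgkb*, the beta form, was lower, at 81.5 CPM in *isl1*-positive and 205 CPM in *isl1*-negative nuclei (-1.26, edgeR adjusted p = 0.0078). *prkcea*, protein kinase C epsilon, was not called, and averaged 6391 CPM in the *prkd3*-led, 1342 CPM in the *npr3*-led and 258 CPM in the *neto1l*-led cluster, against 254 CPM outside the class. That is the order of clusters seen for *prkd3*. *prkcz*, the zeta form, averaged 416 CPM in BC-like and 293 CPM in all other nuclei.

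Of the ionotropic glutamate receptors and their partners, 7 genes were found and tested, of which none was higher and 2 were lower (median -0.006). LOC119969118, a kainate receptor 1 gene (*grik1*), had 362 CPM in *isl1*-positive and 1867 CPM in *isl1*-negative nuclei (log2 fold change -2.17, edgeR adjusted p = 0.0050). It averaged 2511 CPM in the *neto1l*-led, 397 CPM in the *npr3*-led and 98.5 CPM in the *prkd3*-led cluster, so that this receptor subunit and *neto1l* peaked in the same cluster. *shisa9a*, a partner of AMPA receptors in mice, had 24.2 CPM in *isl1*-positive and 71.4 CPM in *isl1*-negative nuclei (-1.40, edgeR adjusted p = 0.044). The AMPA receptor gene *gria2b* averaged 617 CPM in BC-like and 456 CPM in all other nuclei, and *nptx1l*, the other pentraxin found, averaged 83.5 CPM in BC-like and 64.7 CPM in all other nuclei, both without a call. Of the complexins and ribbon synapse genes, 7 were found and 5 tested, with no call in either direction (median -0.04). LOC119967772 (*rims1-l*, an active zone scaffold) and the *grik1* gene were among the markers that named the BC-like class, so their level there is a description only. *rims1-l* averaged 3288 CPM in BC-like and 467 CPM in all other nuclei, and *rims2a* averaged 1770 CPM in BC-like and 1380 CPM in all other nuclei. *cacna2d4a*, a subunit of the calcium channel of ribbon synapses in mice, averaged 1110 CPM in BC-like and 870 CPM in all other nuclei. The other complexin described, *cplx3a*, averaged 139 CPM in the *prkd3*-led, 68.6 CPM in the *npr3*-led and 133 CPM in the *neto1l*-led cluster.

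**Figure D4:**
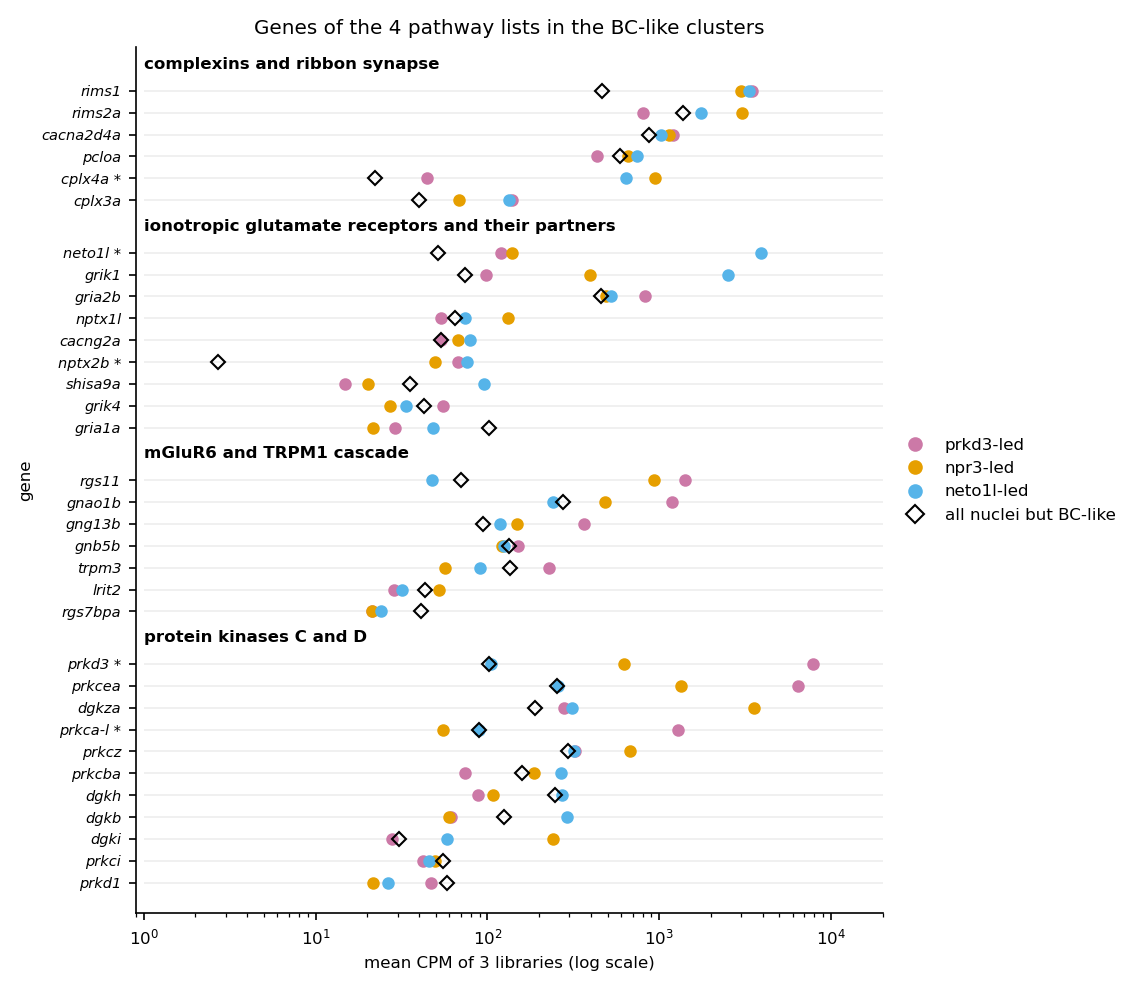
Mean level over 3 libraries (CPM, log axis) of the genes of the 4 lists with at least 20 CPM in BC-like nuclei, in the *prkd3*-led, *npr3*-led and *neto1l*-led clusters (filled points) and in all nuclei outside the BC-like class (open diamonds). Stars mark genes among the 8. *prkcea* reaches 6391 CPM in the *prkd3*-led cluster, and *grik1* 2511 CPM in the *neto1l*-led cluster.

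The genes with the most similar pattern were sought by Pearson's r of log2 (CPM + 10) over 27 sums, 9 named classes in each of 3 libraries, among 10754 genes. These sums share libraries and depth, and r describes them only. *lrit1a* was most like *cplx4a* (0.97), *nrn1la* (0.96) and *rerg* (0.96). *cplx4a* was most like *nrn1la* (0.98), LOC119956402 (*slc1a2*, a glutamate transporter and another naming marker, 0.98) and LOC119976320 (0.97). *rerg* was most like *kcns3a*, a potassium channel subunit (0.98), *cplx4a* (0.96) and *lrit1a* (0.96), and *nptx2b* most like *kcns3a* (0.96), *rerg* (0.96) and LOC119964635 (0.94). *neto1l* was most like LOC119976320 (0.96), *nrn1la* (0.94) and LOC119967181 (0.93). *trpm1a*, above the near-empty droplets in rod-like nuclei too, was most like LOC119958442 (0.96), LOC119968726 (0.95) and LOC119961991 (0.93). *prkd3* was most like *npr3* (0.91), LOC119969006 (0.91) and *tnfaip8l3* (0.91), and *prkca-l* most like *atp2a3*, a calcium pump (0.89), *cables1* (0.87) and LOC119958195 (0.86). Likeness over whole classes hides the clusters: over 69 sums of clusters, *lrit1a* and *cplx4a* still had 0.89, but *lrit1a* and *prkca-l* had -0.15, against 0.69 over classes. For *lrit1a* and *rerg* it was 0.38 over clusters, against 0.96 over classes.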

How the data were processed

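The authors aligned the reads with STARsolo (STAR 2.7.10a) to assembly sScyCan1.1 and deposited raw UMI counts over whole genes, introns included, for all barcodes of 3 libraries (73310348, 50691314 and 71366924 UMIs), with no normalization. The count limits of the study's methods were applied (under 10% mitochondrial UMIs), and the nuclei most like artificial doublets were removed (210, 152 and 356, from a rate of 4% less pairs of 1 cluster). Seurat 5.3.0 (SCTransform, sctransform 0.4.2, 3000 variable features; RPCA; 30 components; resolution 0.5) in R 4.3.3 gave the clusters, named from marker lists. After 1 alternative had been seen, 3 unnamed clusters with over 80% of nuclei from 1 library (2170 nuclei) were left out. UMIs were summed per class and library and scaled to 1000000 (CPM). *isl1*-positive and *isl1*-negative sums, 2 from each library, were compared with edgeR 4.0.16 (TMM, filterByExpr, quasi-likelihood), library as a block because both sums come from 1 animal. DESeq2 1.42.0 was an alternative. The code of the edgeR test was run on simulated counts drawn with no library effect. That run therefore cannot show how the test behaves with the differences between these libraries. Shares carry counting error only.

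The 8 genes, the marker lists and the pathway lists (69 genes) were chosen with earlier results of these data known. Pathway genes were matched by symbol or, for LOC numbers, by the study's table of LOC names. Genes under a LOC number outside that table could not be matched. Named genes are the 8, the 3 most similar to each, and from each pathway list up to 3 called in each direction and up to 3 with the highest BC-like level. *cplx3a* and likeness over clusters were added after values were seen. Levels are not compared between genes, since counts depend on gene length. Gene positions are those of the RefSeq annotation of sScyCan1.1. No sequences are shown.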

Additional observations from a re-analysis of the deposited data

How the results depend on the processing

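The level of each of the 8 genes in BC-like nuclei and its ratio to rod-like nuclei moved by less than the spread between libraries under all 80 and 72 alternatives run. Leaving out 1 library cannot move a mean of 3 libraries by their SD. Those alternatives were thus fixed in advance, here and for the *isl1* ratios below. Resolutions 0.3 and 0.8 kept nearly the same number of BC-like nuclei (1373 and 1374, against 1373), which left BC-like levels little room to move. All 8 stayed highest in BC-like nuclei except *prkca-l* at resolution 0.8 and with a mitochondrial limit of 5% (7 of 8), where 18 and 16 oligodendrocyte-like nuclei of library 3 held 354 and 402 CPM against 344 and 348 CPM in BC-like nuclei. Of 104 alternatives for the *isl1* ratios, 87 stayed within that spread, 9 moved further and 8 reversed: *trpm1a* (-2.03), *prkca-l* (-3.26), *prkd3* (-2.39) and *rerg* (-3.12) with the *npr3*-led cluster as the positive side, *cplx4a* (-0.50) with the *prkd3*-led cluster added to it, and *trpm1a* (-0.34), *prkca-l* (-0.056) and *rerg* (-0.33) after thinning. The count of 205 genes called became 934 and 1070 with these divisions by cluster, 697 of 22293 genes with no filter on low counts, 0 to 455 when 1 library was left out, and 0 with no replicate block. Thinning gave 204 of 3230 genes tested and DESeq2 179 of 8748. The other 7 alternatives gave 173 to 306 of 9403 to 10893 genes. With a median of 4133 to 6462 UMIs a BC-like nucleus, the *isl1*-negative side may hold nuclei in which the gene was missed. The causes of these changes were not tested.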

Other observations

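Outside the named classes, 5 clusters stayed unnamed, and none reached the BC-like level of any of the 8 genes. Each is called by the first of its leading genes that has a symbol, and genes with a LOC number stand ahead of *asmt* and *enpp2*. The clusters led by *foxo1a*, a forkhead transcription factor gene, averaged 197 ± 28.1 CPM of *prkd3* and 86.4 ± 39.8 CPM of *rerg*, above rod-like nuclei (49.6 and 23.9 CPM) in all 3 libraries, and 119 ± 34.0 CPM of *trpm1a*, below rod-like nuclei (168 CPM) in all 3. Of these, only *prkd3* was above the near-empty droplets in every library, while *rerg* and *trpm1a* were below them in library 2. The cluster called by *asmt*, which encodes the last enzyme of melatonin synthesis, averaged 126 ± 26.2 CPM of *trpm1a* and 135 ± 30.2 CPM of *prkd3*, both below the droplets in library 2. The *enpp2*-led cluster averaged 126 ± 27.1 CPM of *prkca-l* and 93.4 ± 11.0 CPM of *neto1l*, and the *nts*-led cluster, named for the neurotensin gene, 134 ± 40.6 CPM of *prkca-l* and 83.8 ± 53.4 CPM of *neto1l*. *prkca-l* was below the droplets in libraries 1 and 2 in both of these clusters (droplet mean 150 CPM), and *neto1l* was above them in every library in the *enpp2*-led cluster and in libraries 1 and 2 in the *nts*-led one.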
